A study of Mus musculus with 4 samples.

Results

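The genes described here are 5 that act where a cell passes from G1 into S phase: the G1 cyclins Ccnd2 and Ccne1, the retinoblastoma gene Rb1, the replicative helicase subunit Mcm4 and the thymidylate synthase Tyms. They were taken by gene symbol from the authors' table of probe sets that differ between the 2 genotypes, and are 5 of 1616 probe sets with a name among 16755 on the array. The cells are immortalised kidney epithelial cells of the mouse, and their RNA was read on 4 Affymetrix arrays covering whole transcripts, 2 for Fh1fl/fl and 2 for Fh1Δ/Δ cells. Fh1fl/fl cells are the wild-type control, with the fumarate hydratase gene floxed but intact, and Fh1Δ/Δ cells are the knockout that lacks fumarate hydratase, both of C57BL/6 background. All cells grew in normoxia, without treatment, in DMEM with 10% serum and 2 mM glutamine, to which the study also added pyruvate and uridine. Each genotype is a cell line, so the loss of Fh1 and the separate history of the lines cannot be told apart, and the labels do not say whether the replicates, called biological, are separate cultures.

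D-type cyclins with CDK4 or CDK6, and cyclin E with CDK2, phosphorylate the retinoblastoma protein in G1. The unphosphorylated protein holds back the E2F transcription factors, whose targets include the genes of cyclin E, of the MCM helicase and of deoxynucleotide synthesis. Rb1 and its relatives thereby set the point at which a cell commits to copying its DNA, and they take part in the lasting arrest of senescent cells. Renal epithelium in the adult kidney is mostly outside the cycle, while immortalised lines pass through it in culture.

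Fh1, the targeted gene, had log2 expression values of 10.48 and 10.45 in Fh1fl/fl cells and of 9.21 and 9.14 in Fh1Δ/Δ cells, and was lower in every Fh1Δ/Δ array. Values over the 4 arrays ran from 1.78 to 13.72 on the log2 scale, and replicates correlated at 0.992 in either genotype, across genes, which are not independent replicates. The 16752 probe sets tested are called genes here, although most carry no name. Of these, 10.2% passed a Benjamini-Hochberg adjusted p of 0.05 from limma, 6.23% as higher and 3.99% as lower in Fh1Δ/Δ cells. The share of calls that were higher was 61.0%, against 43.4% with each array centred on its median and 49.1% with the shift of each chromosome removed. On the Y chromosome, Ddx3y differed by -4.39 and Eif2s3y by -4.66 on the log2 scale, so the lines differ at Y-linked genes too. None of 11 markers of kidney epithelium, of 8 fibroblast markers or of 8 immune and endothelial markers looked up has a name in the table, so the labelled cell type could not be checked.

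Both cyclins differed between the genotypes, in opposite directions. Ccnd2, which encodes cyclin D2, an activator of CDK4 and CDK6, had log2 expression values of 8.34 and 8.41 in Fh1fl/fl cells and of 12.30 and 12.20 in Fh1Δ/Δ cells. The gap between the groups, 3.79 at its narrowest, was far wider than the gaps between replicates of 0.06 and 0.10. The log2 fold change was 3.87 (standard error 0.11, 95% interval from 3.59 to 4.16, adjusted p = 0.000425 from limma), or a 14.7-fold higher signal. By size it stood at rank 13 among all 16752 probe sets tested. Ccne1, which encodes cyclin E1, the partner of CDK2 at the start of S phase, gave 9.10 and 8.93 in Fh1fl/fl cells and 8.12 and 8.02 in Fh1Δ/Δ cells. All Fh1Δ/Δ arrays lay below all Fh1fl/fl arrays, with a narrowest gap of 0.81 against replicate gaps of 0.17 and 0.10. Its log2 fold change was -0.94 (standard error 0.12, 95% interval from -1.26 to -0.63, adjusted p = 0.0174 from limma), a signal 1.92-fold lower.

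**Figure D1:**
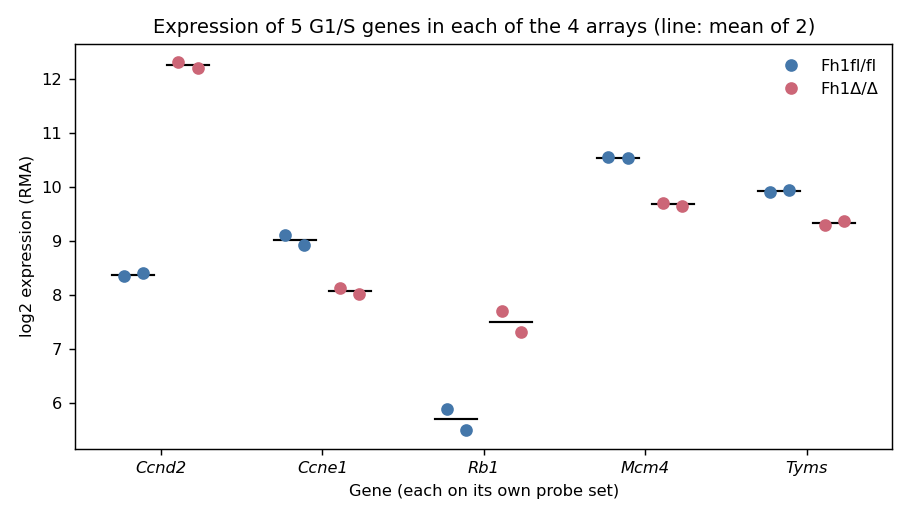
Log2 expression of Ccnd2, Ccne1, Rb1, Mcm4 and Tyms in each array, with points for the 2 arrays of Fh1fl/fl cells (blue) and the 2 of Fh1Δ/Δ cells (red) and a line at each group mean. Ccnd2 moves from about 8.38 to 12.25 on average, Rb1 from 5.70 to 7.51, and the points of the other 3 genes are lower in Fh1Δ/Δ cells, with no overlap between groups; levels of different genes come from different probe sets and are not to be compared.

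Rb1, the pocket protein that binds and restrains E2F factors, was the other gene with a higher signal. Its values were 5.90 and 5.49 in Fh1fl/fl cells and 7.70 and 7.31 in Fh1Δ/Δ cells. The groups did not overlap, although replicates lay 0.40 and 0.39 apart, wider than for any other gene of the 5. The log2 fold change was 1.81 (standard error 0.20, adjusted p = 0.0109 from limma), a 3.51-fold higher signal, and the 4 pairs of a knockout and a control array gave differences from 1.41 to 2.21. The control level lay close to the lower quartiles of the Fh1fl/fl arrays, 5.64 and 5.70, which is the dim end of the array, so the size of this change is uncertain.

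Mcm4 and Tyms, which serve DNA synthesis itself, were both lower in Fh1Δ/Δ cells. Mcm4 encodes a subunit of the MCM helicase, which is loaded at origins in G1 and unwinds DNA ahead of the polymerases. It had values of 10.55 and 10.53 in Fh1fl/fl cells and of 9.71 and 9.64 in Fh1Δ/Δ cells, with replicate gaps of 0.02 and 0.06 and a narrowest gap of 0.82 between the groups. The log2 fold change was -0.86 (standard error 0.11, 95% interval from -1.14 to -0.58, adjusted p = 0.0164 from limma), a 1.81-fold lower signal. Tyms encodes thymidylate synthase, which makes dTMP from dUMP. It had 9.90 and 9.94 in Fh1fl/fl cells and 9.28 and 9.38 in Fh1Δ/Δ cells. The narrowest gap between the groups was 0.52, against replicate gaps of 0.04 and 0.09. Its log2 fold change was the smallest of the 5 at -0.59 (standard error 0.11, 95% interval from -0.87 to -0.31, adjusted p = 0.0378 from limma), with differences from -0.65 to -0.52 over the 4 pairs of arrays.

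In all, 5 of the 5 genes passed the threshold, 2 as higher and 3 as lower, beside 10.2% of all genes tested and 64.2% of those with a name. The groups did not overlap for any of the 5, which was also so for 66.3% of all genes. A gene carries a name here only because it had passed the authors' own test of the same 2 genotypes on these cells, so the p-values above describe the 5 genes and are no independent evidence of their change. With 2 arrays against 2, 0.333 is the smallest p an exact permutation test can reach for any of these genes. Without Fh1fl/fl replicate 1, Ccnd2 and Rb1 passed, and without Fh1fl/fl replicate 2, Ccnd2, Ccne1 and Rb1 did. Without Fh1Δ/Δ replicate 1 only Ccnd2 passed (adjusted p = 0.00989 from limma, against 0.0551 for Rb1), and without Fh1Δ/Δ replicate 2, Ccnd2 and Rb1 did.

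Promoter sequences of Ccne1 and Tyms, the G1/S genes with a lower signal that have an entry in the RefSeq table, are shown because both genes are textbook targets of E2F. Each is the 250 bases before the annotated start, in GRCm38.p6, on the minus strand, at chr7:38107491-38107740 for Ccne1 and at chr5:30073626-30073875 for Tyms. Capitals mark matches to the GC box GGGCGG and to the E box CACGTG on either strand.
Ccne1: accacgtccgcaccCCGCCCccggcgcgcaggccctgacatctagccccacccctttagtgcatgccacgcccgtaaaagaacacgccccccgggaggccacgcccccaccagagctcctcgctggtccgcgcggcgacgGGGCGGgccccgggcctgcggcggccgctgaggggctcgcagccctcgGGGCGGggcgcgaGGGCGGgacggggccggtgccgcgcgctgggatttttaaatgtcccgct
Tyms: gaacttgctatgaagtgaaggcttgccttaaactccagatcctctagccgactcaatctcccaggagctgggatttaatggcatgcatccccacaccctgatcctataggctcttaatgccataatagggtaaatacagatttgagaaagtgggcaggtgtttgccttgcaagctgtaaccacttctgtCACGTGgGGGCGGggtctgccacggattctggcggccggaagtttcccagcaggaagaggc

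The Ccne1 window was 76.0% G and C and held 4 GC boxes, which begin 236, 110, 62 and 49 bases before the start. The Tyms window was 52.0% G and C, close to the median of 52.4% over 32851 windows of the same length, and held 1 GC box 54 bases and 1 E box 61 bases before the start, which do not overlap. A GC box is present in 32.7% of all windows and an E box in 6.02%. The E2F letters TTTCGCGC, TTTGGCGC, TTTCCCGC and TTTGCCGC, present in 1.86% of windows on either strand, were found in neither of the 2 windows. The CCAAT box (33.8%) and the cell cycle homology region TTTGAA (16.0%) were not found there either. Bases outside these windows were not searched, and other forms of the E2F site were not looked for. A match is a description of these letters and not a binding site.

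Around these 5 genes, 7 hand-written lists of the G1/S transition, DNA replication and mitosis hold 98 further genes, of which only 14 have a name in the table. Of those 14, 2 had a higher and 7 a lower signal in Fh1Δ/Δ cells and 5 did not pass, and the genes without a name were not looked at. The 9 of 14 that passed are close to the 64.2% of all genes with a name that did, so the number of calls says nothing particular to these lists. Their median log2 fold change was -0.49, beside -0.11 over all genes tested and 0.38 over all genes with a name. The 14 genes, like all with a name, had passed the authors' test, and most genes tested had not, so -0.11 is not a like comparison. With the chromosome shift removed, 2 of the 14 passed as higher and 2 as lower. Without 1 of the arrays, between 0 and 1 of the 14 passed in each direction, and 11 were lower and 1 higher when arrays were centred on their medians. With the replicate number as a block, 1 was higher and 5 were lower. Median centring took the median log2 fold change over all genes tested from -0.11 to -0.20.

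Among partners of the cyclins, neither kinase passed the test as fitted. Cdk2, the kinase of cyclin E, had 10.24 and 10.21 in Fh1fl/fl cells and 9.77 and 9.71 in Fh1Δ/Δ cells, a log2 fold change of -0.48 (adjusted p = 0.0540 from limma). Cdk4, the kinase of D-type cyclins, had a log2 fold change of -0.45 (adjusted p = 0.0665 from limma). With arrays centred on their medians both passed (0.0385 for Cdk2 and 0.0475 for Cdk4, adjusted p from limma), and Cdk2 also did with quantile normalization (0.0419). With the chromosome shift removed neither passed, at -0.15 for Cdk2 (adjusted p = 0.385 from limma) and -0.12 for Cdk4 (0.509). None of the 7 CDK inhibitor genes, Cdkn1a and Cdkn2a among them, has a name in the table. Beside Rb1 in its list, the pocket protein gene Rbl2 was higher, with a log2 fold change of 0.55 (adjusted p = 0.0457 from limma), a call that ended with arrays centred on their medians (0.0636) or quantile normalized (0.0588). E2f7, an E2F factor that represses transcription, was lower, with 8.69 and 8.66 in Fh1fl/fl cells and 7.74 and 7.93 in Fh1Δ/Δ cells (log2 fold change -0.84, adjusted p = 0.0217 from limma). With the chromosome shift removed it had -0.51 and did not pass (adjusted p = 0.0610 from limma).

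Besides Mcm4 and Tyms, 9 genes of the 3 replication lists have a name. Of these, 6 passed as lower and Pold4 as higher, beside the 64.2% of named genes that passed in either direction. With the chromosome shift removed, only Rfc4 and Rfc5 of these 6 passed as lower. Cdc45l (now Cdc45), which encodes a partner of the MCM helicase at the fork, was lower with a log2 fold change of -0.59 (adjusted p = 0.0379 from limma), while Gins3, of the same complex, did not pass at -0.38 (adjusted p = 0.0920 from limma). Among genes of deoxynucleotide synthesis, Dck, a salvage kinase of deoxycytidine, was lower at -0.59 (adjusted p = 0.0409 from limma). Of 6 genes of polymerases, the clamp loader and fork proteins with a name, 4 were lower: Rfc4 (adjusted p = 0.0166 from limma) and Rfc5 (-0.80), subunits of the clamp loader, Prim1 (-0.66), the primase, and Pole3 (-0.50), a subunit of polymerase epsilon. The calls of Prim1 (adjusted p = 0.124 from limma) and Pole3 (0.0999) ended with the chromosome shift removed, as did those of Cdc45l (0.115) and Dck (0.0966). For Rfc4 the values were 10.07 and 9.96 in Fh1fl/fl cells and 9.11 and 8.91 in Fh1Δ/Δ cells. Pold4, a small subunit of polymerase delta, was higher at 1.13 (adjusted p = 0.0153 from limma), and Rpa2, of the single-strand binding complex, did not pass at -0.49 (adjusted p = 0.0560 from limma). Cenpa, the centromeric histone and the only named gene of G2 and mitosis, had a log2 fold change of -0.48 (adjusted p = 0.0543 from limma). Rpa2 and Cenpa passed with median centring (0.0398 and 0.0393, adjusted p from limma) and with quantile normalization (0.0456 and 0.0479). Neither passed with the chromosome shift removed, at -0.33 for Rpa2 (adjusted p = 0.115 from limma) and -0.27 for Cenpa (0.165).

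**Figure D2:**
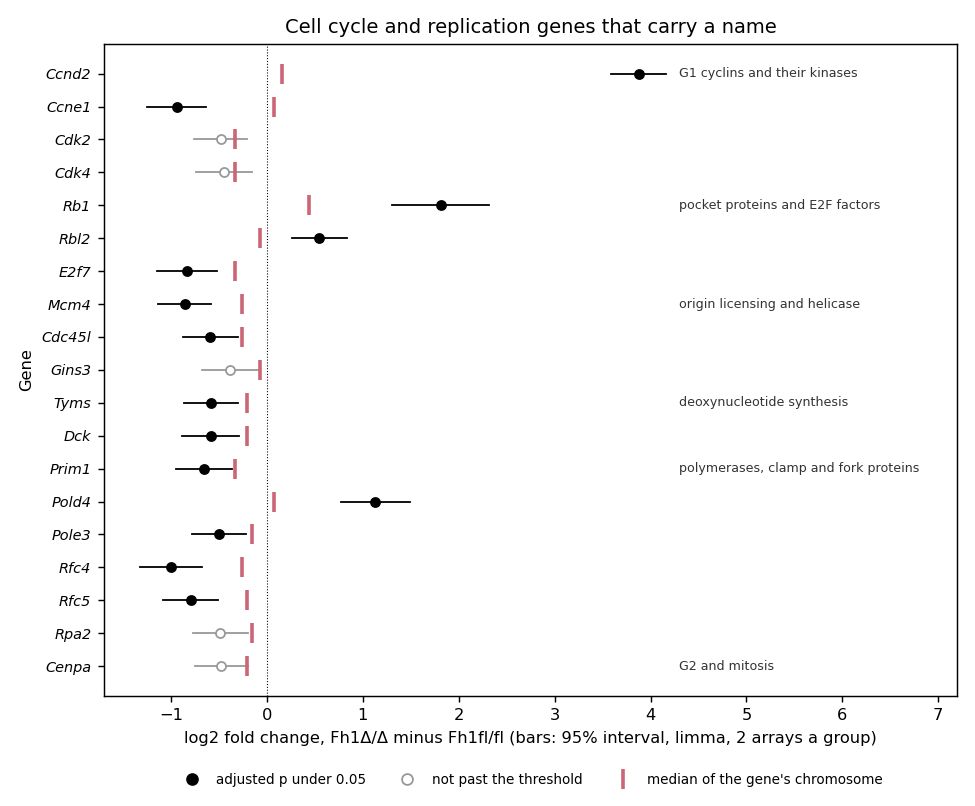
Log2 fold change of Fh1Δ/Δ over Fh1fl/fl cells (x axis) for 19 genes of the cell cycle lists that have a name (y axis, by list), with 95% intervals from limma, filled points for an adjusted p under 0.05 and red ticks at the median log2 difference of the brighter probe sets on each gene's chromosome. Of the 19 genes 15 lie below 0, and 14 of these 15 are on a chromosome whose red tick is also below 0.

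The genes of some chromosomes differed together between the 2 lines, and the 5 genes were therefore set beside their chromosomes. Probe sets whose mean level exceeded the median of 7.24, called brighter here, had a median log2 difference of 0.16 on chromosome 6 (Ccnd2), 0.07 on chromosome 7 (Ccne1), 0.44 on chromosome 14 (Rb1), -0.26 on chromosome 16 (Mcm4) and -0.21 on chromosome 5 (Tyms). Relative to these medians the log2 differences were 3.71 for Ccnd2, -1.01 for Ccne1, 1.37 for Rb1, -0.60 for Mcm4 and -0.38 for Tyms. All 5 kept their direction, and Ccne1 went against the median of its chromosome. As large a difference in the same direction was found in 0.267% of the brighter probe sets of chromosome 6 for Ccnd2 and in 0.583% of those of chromosome 7 for Ccne1. The share was 1.95% on chromosome 14 for Rb1, 6.58% on chromosome 16 for Mcm4 and 8.66% on chromosome 5 for Tyms. Rb1 itself has a mean level below 7.24, so its share sets a dimmer probe set beside brighter ones. With the chromosome shift removed in the fit, Tyms no longer passed (adjusted p = 0.0901 from limma), while Mcm4 did (0.0354), as did Rb1 (0.0232), Ccne1 (0.0149) and Ccnd2 (0.000458).

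**Figure D3:**
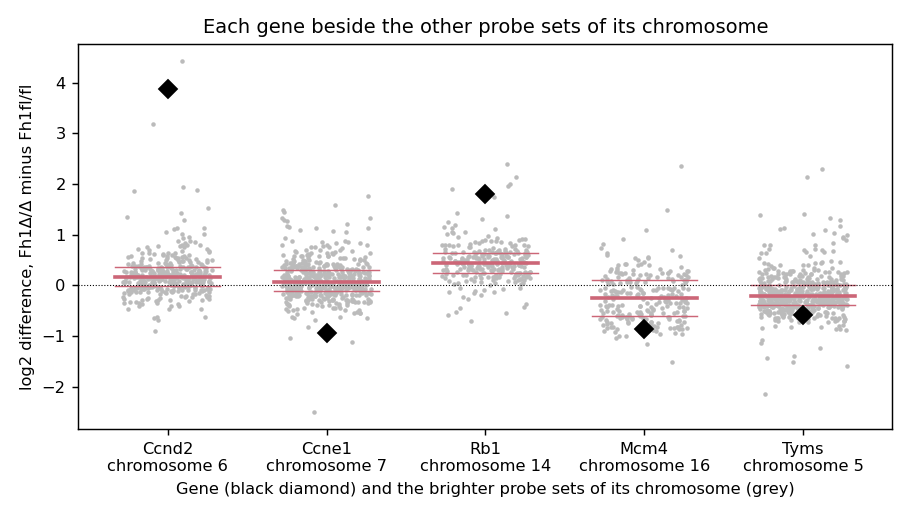
Log2 difference between Fh1Δ/Δ and Fh1fl/fl cells (y axis) for each of the 5 genes (black diamonds) and for the brighter probe sets of its chromosome, the gene itself left out (grey points), with red lines at their quartiles and median. Rb1 is not itself one of the brighter probe sets. Ccnd2 at 3.87 and Ccne1 at -0.94 lie at the edge of their chromosomes' points, whereas Tyms at -0.59 lies below the lower quartile line of chromosome 5, among points of which 8.66% are as low.

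The 20 nearest probe sets of each gene in array order, 10 on each side on the same chromosome, gave the closer surroundings. Around Ccnd2 they ran from -0.39 to 0.29 in log2 difference, and none passed the test. Around Ccne1 they ran from -0.83 to 0.43, and 1 was called lower. Those around Rb1 had a median of 0.08 with a range from -0.65 to 1.36, and 6 were called higher and 1 lower. Around Mcm4 the median was -0.33 with a range from -1.50 to 0.12. Of the 20, 2 were higher by value and 3 were called lower. Most probe sets about Mcm4 thus had a lower value, as Mcm4 itself had. Around Tyms the median was -0.20 with a range from -1.35 to 0.76, and none was called. Of the 19 named genes of the cell cycle lists, 4 were lower (Ccne1, Mcm4, Rfc4 and Rfc5) and 4 higher (Ccnd2, Rb1, Rbl2 and Pold4) once the chromosome shift was removed, although all 15 that were lower by value stayed lower by value. In that fit 10.5% of all genes and 49.2% of those with a name passed.

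The named genes whose profile lay nearest to each of the 5, by Euclidean distance between log2 values centred over the 4 arrays, were looked up as a description. For Ccnd2 they were P2rx3 (0.23), Mt2 (0.28) and Slc7a11 (0.39), which encode an ATP-gated channel, a metallothionein and the cystine transporter xCT. For Rb1 they were Phyh (0.10), Ly6f (0.19) and Aff2 (0.23), and for Ccne1 they were Rb1cc1 (0.06), Adamts1 (0.06) and Tlr3 (0.08). Mcm4 had Thbs1 (0.03), Bmpr1b (0.04) and Tmpo (0.04) nearest to it, and Tyms had Tmem64 (0.03) and 1700001C19Rik (0.03). With 4 arrays in 2 groups, nearness reflects little more than a like difference between the genotypes.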

How the data were processed

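RNA of 4 cell samples was hybridised to Affymetrix whole-transcript arrays. The authors normalized the arrays by RMA, with Partek and the build mm9 per the submitters' processing notes, and deposited a log2 value for each of 16755 probe sets. Names come from a table in which the authors deposited their own comparison, and which lists 1616 probe sets and also holds fold changes and p-values that were not used. The deposited tables hold 12 columns of hypoxia arrays that belong to no sample described here, and these were not used. Of the names, 1608 matched RefSeq genes of GRCm38.p6.

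For 3 names on more than 1 probe set the brightest was kept. The 16752 probe sets left were fitted with lmFit and eBayes of limma 3.58.1 (R 4.3.3), with genotype as the only term. No filter on dim probe sets was used, and the Benjamini-Hochberg adjustment was over all 16752. The script was tested on simulated data. The number of arrays limits the precision, and the p-values cover no more than the spread seen between them. Probe sets without a name were placed on a chromosome when both nearest named neighbours in array order shared it, a rule that was right for 1564 of 1566 named probe sets left out in turn. The shift of a chromosome is the median difference of its brighter probe sets. The alternatives tried were a block for the replicate number, leaving out each array, quantile normalization, median centring, the dimmest 25% or 50% of genes left out, limma with trend and robust, the chromosome shift removed, and thresholds of 0.01 and 0.10. The genes and lists were chosen with earlier results of these data known. Named in the text are the 5 genes, every list gene with a name, Fh1 and the 3 nearest profiles of each of the 5, apart from a few genes that are not reported here and were left out of the lists. Ddx3y and Eif2s3y were added with their values known. Promoters come from RefSeq, in GRCm38.p6, and 2 of the 5 genes had an entry in the table used.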

Additional observations from a re-analysis of the deposited data

How the results depend on the processing

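All 5 genes kept their direction under every alternative that gave a value. Rb1 gave none with the dimmest 50% left out, since it is among them. Only quantile normalization, median centring and the removal of the chromosome shift could have reversed a direction. The groups do not overlap, so leaving an array out could not, and the other settings do not change the log2 fold change. Ccnd2 passed the threshold under each alternative that kept every array. The number of the 5 that passed went from 5 to between 1 and 3 with an array left out and to 1 at a threshold of 0.01, where Ccne1 (log2 fold change -0.94), Rb1 (1.81), Mcm4 (-0.86) and Tyms (-0.59) no longer passed. With an array left out, log2 fold changes ran from -1.03 to -0.86 for Ccne1, from 1.61 to 2.01 for Rb1, from -0.89 to -0.83 for Mcm4 and from -0.63 to -0.54 for Tyms, and Mcm4 and Tyms failed to pass whichever array was left out. Leaving an array out makes its group a single sample that is assumed to vary like the other group. Tyms did not pass with the chromosome shift removed (-0.37). Relative to their chromosomes the 5 differences moved under the alternatives run by less than the larger of the 2 groups' SDs for that gene. Of these alternatives, only quantile normalization and leaving an array out could move them. Median centring shifts a gene and its chromosome alike, and the filters on dim genes keep the same brighter probe sets.

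Counts over all genes tested, higher and lower, were 1044 and 668, and with an array left out between 205 and 480 and between 81 and 322. They were 1749 and 1526 without the dimmest 25%, 1693 and 1245 without the dimmest 50%, 1854 and 1471 with trend and robust, 197 and 51 at a threshold of 0.01, 1897 and 2031 at 0.10, and 1052 were lower with median centring. Among the 14 other named list genes, 2 higher and 7 lower, the counts were 0 to 1 and 0 to 1 with an array left out and 0 and 0 at 0.01. Higher genes of that group numbered 1 with median centring, with quantile normalization and with the replicate block. Lower genes of that group numbered 11 with median centring, 12 in each of 4 settings (both filters, trend and robust, and the threshold of 0.10) and 2 with the chromosome shift removed. The cause of these moves was not tested.

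Same-numbered arrays of the genotypes deviated together only weakly (correlation 0.106 over genes, 2 pairs), and the labels do not say that a number marks a shared batch. With the replicate number as a block, 1009 genes were higher and 749 lower over all genes, and all 5 of the genes passed. Their log2 fold changes were the same, as they must be where each replicate number occurs once in each genotype.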
